A study of Homo sapiens with 12 samples.

Results

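The 10 genes described here carry the MHC class I antigen presentation pathway: B2M, HLA-E and HLA-F among the class I molecules, TAP1, TAP2 and TAPBP in peptide transport and loading, PSMB8, PSMB9 and PSMB10 in the immunoproteasome, and NLRC5 as a regulator. They were chosen by name, and a probe set was counted for a gene where the platform annotation assigned it to that gene alone. This gave 21 probe sets of the 54613 on the array that are not controls, and 10 genes of the 14061 tested. For each gene the probe set with the highest mean signal over the 12 arrays was the main one, and all 10 main probe sets passed the filter on dim signals. Of the 21 probe sets, 1 of TAP2 did not pass it. In the RefSeq gene table of build GRCh38.p14, 7 of the 10 genes (HLA-F, HLA-E, TAP2, PSMB8, TAP1, PSMB9 and TAPBP) lie on chromosome 6 between 29723434 and 33314078, in the MHC, while B2M lies on chromosome 15 and NLRC5 and PSMB10 on chromosome 16.

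RNA of 2 cancer lines was hybridised to Affymetrix U133 Plus 2.0 arrays: SW780, a bladder carcinoma line grown in Leibovitz L-15, and A549, a lung adenocarcinoma line grown in RPMI1640. Each line received siKDM3A, an siRNA against KDM3A, an enzyme that takes methyl groups off histone H3, or 1 of the control siRNAs siEGFP and siFFluc, which target enhanced green fluorescent protein and firefly luciferase. All duplexes were given at 100 nM with lipofectamine 2000, and RNA was taken after 24 h. The 6 groups, SW780 siKDM3A, SW780 siEGFP, SW780 siFFluc, A549 siKDM3A, A549 siEGFP and A549 siFFluc, held 2 arrays each. The labels give 1 siRNA name for KDM3A and do not say whether the arrays of a group came from separate cultures, so the p-values reflect array-to-array spread that may be technical only.

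MHC class I molecules show peptides from inside the cell to CD8+ T cells. Proteasomes cut proteins into peptides, the TAP1 and TAP2 transporter carries the peptides into the endoplasmic reticulum, and tapasin, the product of TAPBP, holds empty class I molecules at the transporter until a peptide binds. Interferon raises most genes of the pathway in many cell types, in part through interferon-stimulated response elements (ISREs) in their promoters, and NLRC5 acts on the class I promoters as a co-activator.

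The upstream sequences of the genes are shown because 2 of those that changed, TAPBP and TAP2, and 2 that did not pass the test, TAP1 and B2M, all hold the letters of an ISRE core. RefSeq promoter entries of build GRCh38.p14 matched 8 of the 10 genes, and HLA-E and NLRC5 had no entry. The 250 bases before the transcript start were searched on both strands for the ISRE core, which is printed in capitals here (in TAP1 as its reverse complement):
TAPBP, chr6:33314079-33314328, minus strand: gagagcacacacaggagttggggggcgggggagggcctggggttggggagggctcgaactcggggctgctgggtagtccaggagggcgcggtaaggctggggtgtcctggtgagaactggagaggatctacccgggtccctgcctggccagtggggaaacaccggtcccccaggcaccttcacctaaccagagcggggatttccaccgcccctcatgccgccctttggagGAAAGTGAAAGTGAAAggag
TAP2, chr6:32838740-32838989, minus strand: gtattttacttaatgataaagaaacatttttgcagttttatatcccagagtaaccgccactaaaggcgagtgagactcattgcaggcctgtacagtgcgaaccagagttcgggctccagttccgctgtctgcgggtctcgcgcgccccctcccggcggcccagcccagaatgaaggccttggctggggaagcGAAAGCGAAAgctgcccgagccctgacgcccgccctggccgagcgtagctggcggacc
TAP1, chr6:32853705-32853954, minus strand: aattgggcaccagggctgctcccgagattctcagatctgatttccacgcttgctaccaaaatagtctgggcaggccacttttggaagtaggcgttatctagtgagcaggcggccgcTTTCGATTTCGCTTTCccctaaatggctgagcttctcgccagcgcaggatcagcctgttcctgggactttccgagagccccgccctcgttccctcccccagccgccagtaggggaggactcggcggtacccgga
B2M, chr15:44711267-44711516, plus strand: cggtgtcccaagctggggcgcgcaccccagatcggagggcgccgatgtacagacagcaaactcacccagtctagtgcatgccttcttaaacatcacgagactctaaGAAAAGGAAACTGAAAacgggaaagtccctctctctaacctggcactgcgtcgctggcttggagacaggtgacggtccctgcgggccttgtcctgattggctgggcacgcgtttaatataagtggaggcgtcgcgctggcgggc

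The ISRE core was present upstream of 6 of the 8 genes, namely B2M, HLA-F, TAP1, TAP2, TAPBP and PSMB10, against 3.02% of 35116 RefSeq promoters of the same length. In TAPBP 2 overlapping matches lay between bases -20 and -5 from the start. In TAP2 the match lay between -58 and -49, and in PSMB10 between -21 and -12. In TAP1 2 overlapping matches lay between -134 and -119, and the start of PSMB9 lay 487 bases from that of TAP1 on the opposite strand, so that the same letters stood 354 to 369 bases upstream of PSMB9, outside its own window. Of the other motifs searched, the kappa B type motif was present in 3 of the 8 genes and 22.6% of all promoters, CCAAT (the Y box) in 4 of 8 and 32.0%, and TTCNNNGAA (the gamma-activated site) in 0 of 8 and 6.57%. The 2 kappa B type matches of B2M overlap each other, and the Y box matches of TAP1 and PSMB9 are the same letters, read from both sides, so that 1 site counts for both genes. A match is a description of the letters, and an absence says only that they are not in this window.

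**Figure D1:**
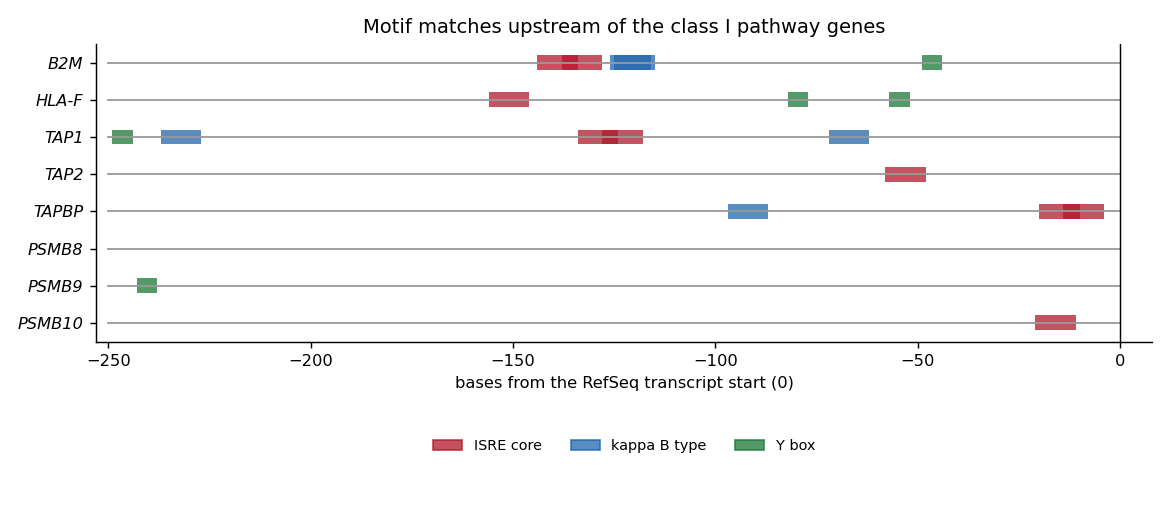
Motif matches in the 250 bases before the RefSeq transcript start of the 8 genes with an entry. The x axis is the distance from the start in bases, each grey line is 1 gene, and boxes mark the ISRE core, kappa B type and Y box matches on either strand. The ISRE core lies within 21 bases of the start in TAPBP and PSMB10 and farther away in TAP1, B2M and HLA-F.

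The median signal was 50.2 to 58.9 per array, and it shifted with siKDM3A in opposite directions in the lines. It was 58.0 and 54.2 in SW780 siKDM3A against 50.2 to 54.1 in its controls. In A549 siKDM3A it was 52.9 and 51.7 against 57.3 to 58.9. The share of probe sets above a signal of 100, 38.8% to 41.6% per array, shifted the same way, again without overlap. Median scaling, an alternative given below, set the medians equal. Pearson's r between the arrays of a group, taken over genes (which are no replicates), was 0.982 to 0.989. The SW780 siFFluc arrays were the least alike, and their log2 differences had an SD of 0.483 (0.359 to 0.437 in the other groups). KDM3A signals were 196.8 and 223.0 in SW780 siKDM3A, against 359.1 to 432.6 in its 4 control arrays, and 692.5 and 712.4 in A549 siKDM3A, against 1299.7 to 1518.6. The siKDM3A means were 53.3% of the controls in SW780 and 50.5% in A549, with no overlap in either line. The ratio of the beta-actin 3' to 5' control probe sets was 1.51 and 1.61 in SW780 siKDM3A against 1.39 to 1.44 in its controls, and 1.19 and 1.16 in A549 siKDM3A against 1.20 to 1.29. Its part in the results was not tested. The urothelial genes UPK1A, UPK1B and GATA3 averaged 1842.5, 9828.7 and 12388.9 in SW780 and 38.5, 646.3 and 359.1 in A549. Of the other urothelial markers UPK3A was at 5.83 and 5.67, KRT5 ran the other way at 153.0 in SW780 and 5609.1 in A549, and UPK2, UPK3B and KRT20 were higher in SW780. Of 7 lung markers NKX2-1, SFTPC, SCGB1A1 and AQP5 were low in A549 (3.80 to 43.8) and no higher than in SW780, whereas SFTPB (137.8 in SW780, 155.4 in A549), NAPSA (47.2 and 91.8) and FOXA2 (47.5 and 988.6) were higher in A549. The leukocyte gene PTPRC was at 13.2 in SW780 and 12.8 in A549. The summed signal of 6 leukocyte markers was 201.5 to 237.2 in SW780 siKDM3A against 197.1 to 225.0 in its controls, and 206.9 to 258.4 in A549 siKDM3A against 253.5 to 374.9. The summed signals of other marker lists did not overlap in 3 cases: 7 fibroblast markers in A549 (1010.0 to 1135.8 in siKDM3A against 1350.7 to 1377.4), 7 lung markers in A549 (1016.4 to 1121.3 against 1308.8 to 1598.9) and 8 urothelial markers in SW780 (22743.2 to 23157.4 against 23435.9 to 30858.5). Their part in the results was not tested.

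Under siKDM3A none of the 10 genes was called higher in either line. The counts were 0 higher and 1 lower (TAPBP) in SW780, and 0 higher and 1 lower (TAP2) in A549. By limma's moderated test with the Benjamini-Hochberg adjustment over all 14061 genes, at an adjusted p under 0.05, 11.8% of genes were called in SW780 (5.68% higher, 6.15% lower) and 11.7% in A549 (5.33% higher, 6.35% lower), so 1 of 10 is near the background. The median change of the 10 genes was -0.10 in SW780, against 0.03 over all genes, and -0.17 in A549, against -0.02. Changes are log2 fold changes on the log2(signal + 16) scale, siKDM3A minus the mean of both control groups, each with its SE. In the counts of the lists, genes that rose or fell are those called higher or lower. In bulk RNA, fewer cells carrying a transcript and less of it per cell cannot be told apart. At an unadjusted p under 0.05, 0 were higher and 3 lower in SW780, and 0 higher and 5 lower in A549. The count of 0 higher had exceptions in alternatives: PSMB9 rose in SW780 without SW780 siFFluc replicate 2 (0.42, adjusted p = 0.00111), and PSMB10 in A549 under median scaling (0.30, adjusted p = 0.0248), which itself moved the median of all genes to 0.12.

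**Figure D2:**
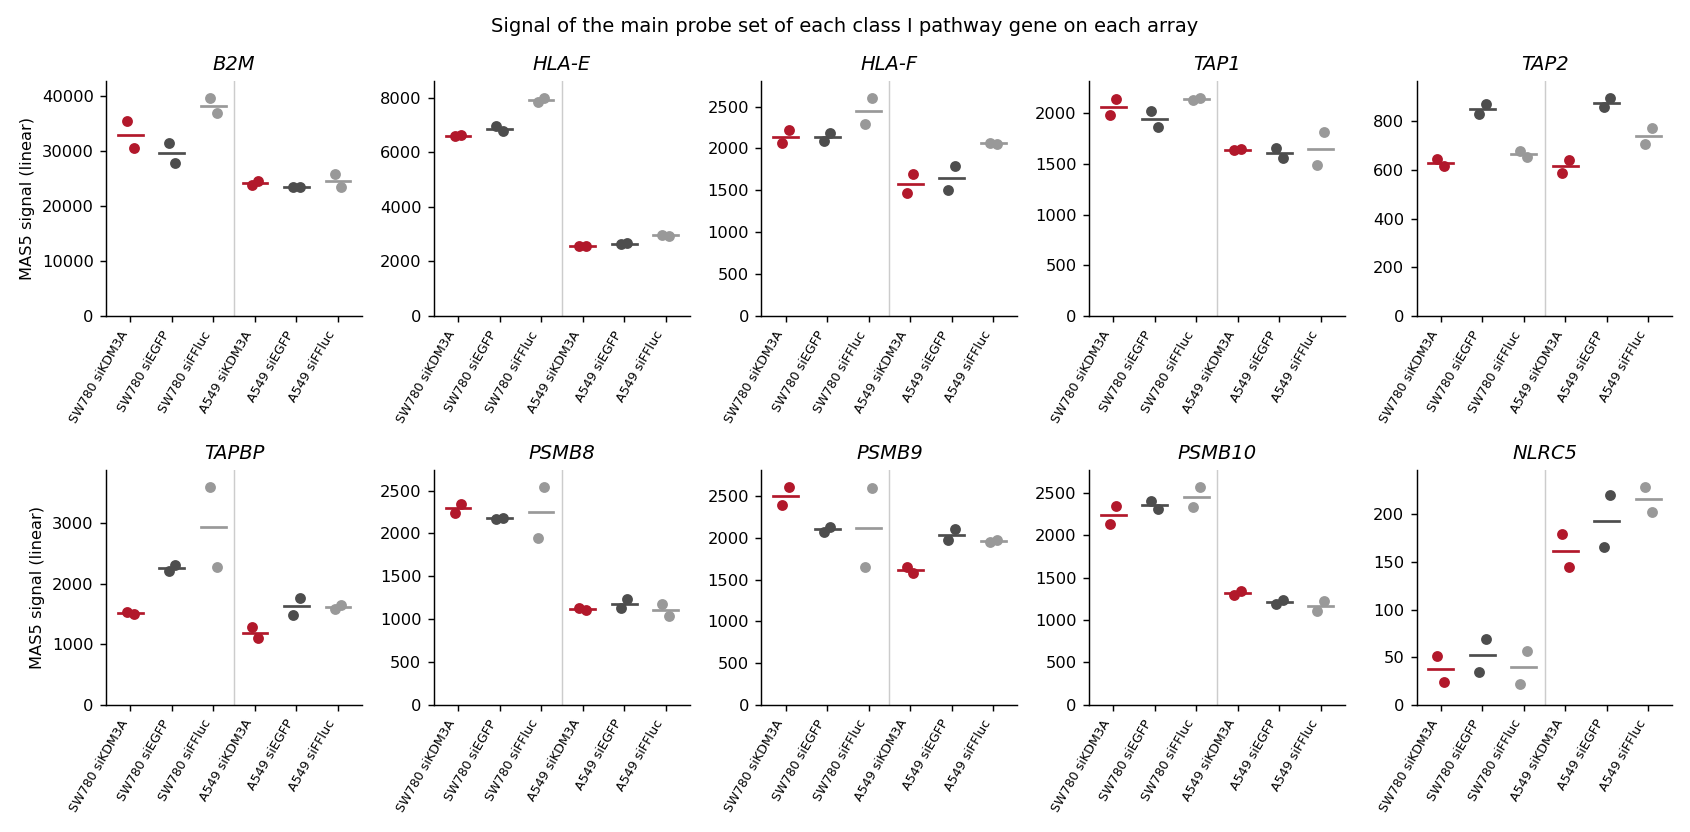
Signal of the main probe set of each of the 10 genes on each of the 12 arrays. Points are arrays, horizontal lines are group means of 2 arrays, and the y axis is the MAS5 signal on a linear scale from 0. In SW780 the siKDM3A arrays lie at 1497.1 and 1528.6 for TAPBP, below all 4 control arrays, and NLRC5 lies at 22.0 to 69.2 in SW780 and 144.6 to 228.5 in A549.

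TAPBP, which encodes tapasin, gave, by its main probe set 208829_at, signals of 1528.6 and 1497.1 in SW780 siKDM3A, against 2218.5 and 2312.3 in siEGFP and 3599.8 and 2286.0 in siFFluc. The 2 siKDM3A arrays lay below every control array, and siFFluc replicate 1 stood high among the controls. TAPBP fell by 0.75 ± 0.14 (95% interval -1.05 to -0.44, adjusted p = 0.00444), to 58.1% of the control mean. The call was lost with siEGFP as the only control (-0.58, adjusted p = 0.0531) and with the mean over the probe sets of a gene (-0.44, adjusted p = 0.0858). In A549 TAPBP was at 1285.7 and 1099.8 in siKDM3A, against 1492.4 and 1760.3 in siEGFP and 1576.9 and 1643.0 in siFFluc. The groups did not overlap, and the change of -0.44 ± 0.14 did not pass the threshold (adjusted p = 0.0614). With only the A549 arrays fitted, the change passed (-0.44, adjusted p = 0.0114). It passed without SW780 siFFluc replicate 1 (adjusted p = 0.00366) or replicate 2 (0.00362) in the pooled spread. The response did not pass the test of a difference between lines (-0.31 ± 0.20, adjusted p = 0.445), except without SW780 siFFluc replicate 2 (-0.47, adjusted p = 0.0358).

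TAP2, the partner of TAP1 in the peptide transporter, was read by its main probe set 225973_at. A549 siKDM3A gave 587.8 and 641.0, against 856.4 and 893.5 in siEGFP and 707.9 and 773.0 in siFFluc. Both siKDM3A arrays lay below all controls, and siEGFP was the higher of the control groups. TAP2 fell in A549 by 0.38 ± 0.09 (95% interval -0.57 to -0.19, adjusted p = 0.0131), to 76.1% of the control mean. The call was lost without A549 siKDM3A replicate 1 (-0.32, adjusted p = 0.159) or replicate 2 (-0.44, adjusted p = 0.0574), with siFFluc as the only control (-0.26, adjusted p = 0.123) and under median scaling (-0.23, adjusted p = 0.12). In SW780 TAP2 was at 645.5 and 614.3 in siKDM3A, against 829.0 and 868.7 in siEGFP and 678.9 and 652.3 in siFFluc. The siKDM3A arrays again lay below all controls but close to siFFluc, and the change was -0.25 ± 0.09 (adjusted p = 0.0821). It passed with siEGFP as the only control (-0.42, adjusted p = 0.0269) and under median scaling (-0.35, adjusted p = 0.0326), and was -0.08 (adjusted p = 0.669) with siFFluc as the only control.

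TAP1 did not pass the test in either line. It was at 1984.5 and 2146.3 in SW780 siKDM3A, against 2020.9 and 1868.6 in siEGFP and 2136.8 and 2148.3 in siFFluc, and at 1634.7 and 1645.8 in A549 siKDM3A, against 1656.1 and 1555.8 in siEGFP and 1492.5 and 1812.3 in siFFluc. The siKDM3A arrays lay inside the range of the controls in both lines. Its change was 0.02 ± 0.08 in SW780 and 0.01 ± 0.08 in A549, with 95% intervals of -0.16 to 0.19 in both, so that a fall the size of that of TAPBP in SW780 lay outside them.

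Among the class I molecules, B2M, the light chain shared by all of them, was one of the brightest genes, at the 99.4th to 99.7th percentile of genes and 58.7% to 76.6% of the highest signal on its array, where the array's response may flatten. B2M was at 35532.2 and 30533.5 in SW780 siKDM3A, against 31513.1 and 27795.8 in siEGFP and 39609.3 and 37022.0 in siFFluc. In A549 it was at 23787.8 and 24583.8 in siKDM3A, against 23426.9 and 23561.3 in siEGFP and 25872.2 and 23421.4 in siFFluc. The groups overlapped in both lines, and the changes were -0.03 ± 0.08 in SW780 (adjusted p = 0.853) and 0.01 ± 0.08 in A549 (adjusted p = 0.968).

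HLA-E, a non-classical class I molecule that is read by NK cell receptors, lay slightly lower under siKDM3A in both lines. It was at 6580.0 and 6616.1 in SW780 siKDM3A, against 6952.1 and 6762.1 in siEGFP and 7851.4 and 7969.3 in siFFluc, and at 2570.9 and 2561.2 in A549 siKDM3A, against 2642.5 and 2666.9 in siEGFP and 2975.3 and 2936.7 in siFFluc. The siKDM3A arrays were below all controls in both lines, though close to siEGFP. The changes of -0.16 ± 0.05 and -0.13 ± 0.05 did not pass the threshold in SW780 (adjusted p = 0.0675) or in A549 (adjusted p = 0.142). The SW780 change passed without SW780 siFFluc replicate 1 (adjusted p = 0.045) or replicate 2 (0.0471), under median scaling (0.0242) and with the 60th percentile filter (0.0493). With siFFluc as the only control HLA-E passed in SW780 (-0.26, adjusted p = 0.0116) and in A549 (-0.20, adjusted p = 0.0494). Other alternatives made the changes smaller. Over all of them the SW780 change was -0.26 to -0.06. The A549 change was -0.20 to 0.03, the last under median scaling (adjusted p = 0.833). HLA-F, another non-classical molecule, was at 2061.1 and 2223.5 in SW780 siKDM3A, against 2095.1 to 2597.1 in the controls, and at 1466.7 and 1694.7 in A549 siKDM3A, against 1499.1 to 2067.0. Both lines overlapped with their controls, and the changes were -0.09 ± 0.09 (adjusted p = 0.559) and -0.22 ± 0.09 (adjusted p = 0.137). The A549 change passed with siFFluc as the only control (-0.38, adjusted p = 0.0328). Probe sets of HLA genes can read the transcripts of other HLA genes, so these levels are uncertain as to gene.

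The immunoproteasome genes encode the catalytic subunits that replace those of the constitutive proteasome after interferon. PSMB8 was at 2241.4 and 2346.4 in SW780 siKDM3A, against 1949.0 to 2540.3 in the controls, and at 1126.6 and 1107.5 in A549 siKDM3A, against 1037.1 to 1235.8. It overlapped with the controls in both lines, with changes of 0.06 ± 0.10 (adjusted p = 0.76) and -0.03 ± 0.10 (adjusted p = 0.894). PSMB10 was at 2138.9 and 2342.1 in SW780 siKDM3A, against 2317.7 to 2570.4 in the controls, and at 1298.9 and 1349.0 in A549 siKDM3A, against 1113.1 to 1239.5. The A549 siKDM3A arrays lay above all 4 controls, and neither change passed (-0.10 ± 0.07, adjusted p = 0.42, and 0.15 ± 0.07, adjusted p = 0.231).

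PSMB9 had opposite signs in the lines. It was at 2392.3 and 2609.9 in SW780 siKDM3A, against 2074.9 and 2136.4 in siEGFP and 1652.8 and 2596.6 in siFFluc, and at 1650.2 and 1584.3 in A549 siKDM3A, against 1971.9 and 2107.5 in siEGFP and 1949.0 and 1973.1 in siFFluc. SW780 overlapped through siFFluc replicate 2, whereas the A549 siKDM3A arrays lay below all controls. The changes were 0.26 ± 0.13 in SW780 (adjusted p = 0.233) and -0.30 ± 0.13 in A549 (adjusted p = 0.155). With only the A549 arrays fitted, the A549 change passed (-0.30, adjusted p = 0.00843). The A549 change passed without SW780 siFFluc replicate 1 (adjusted p = 0.0047) or replicate 2 (0.00489), arrays that enter it through the shared spread alone, and the SW780 change passed without replicate 2 (0.42, adjusted p = 0.00111). The difference between lines, 0.56 ± 0.18, did not pass (adjusted p = 0.123). Both SW780 siFFluc arrays bear on it: without replicate 1 the difference was 0.40 (adjusted p = 0.0249), and without replicate 2 it was 0.72 (adjusted p = 0.00174). The test of the difference called 0 of the 10 genes, where 2.75% of all genes were called (1.78% higher, 0.974% lower), and 1 was higher and 1 lower at an unadjusted p under 0.05.

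NLRC5 was the dimmest of the 10, at the 6.2nd to 34.3rd percentile of genes. Its signals were 51.6 and 23.8 in SW780 siKDM3A, against 34.9 and 69.2 in siEGFP and 22.0 and 57.0 in siFFluc, on either side of the filter signal of 33.6. In A549 they were 179.3 and 144.6 in siKDM3A, against 165.2 and 220.7 in siEGFP and 228.5 and 202.6 in siFFluc. The groups overlapped in both lines, and the changes of -0.18 ± 0.33 (adjusted p = 0.786) and -0.31 ± 0.33 (adjusted p = 0.635) had wide intervals, -0.90 to 0.53 in SW780.

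**Figure D3:**
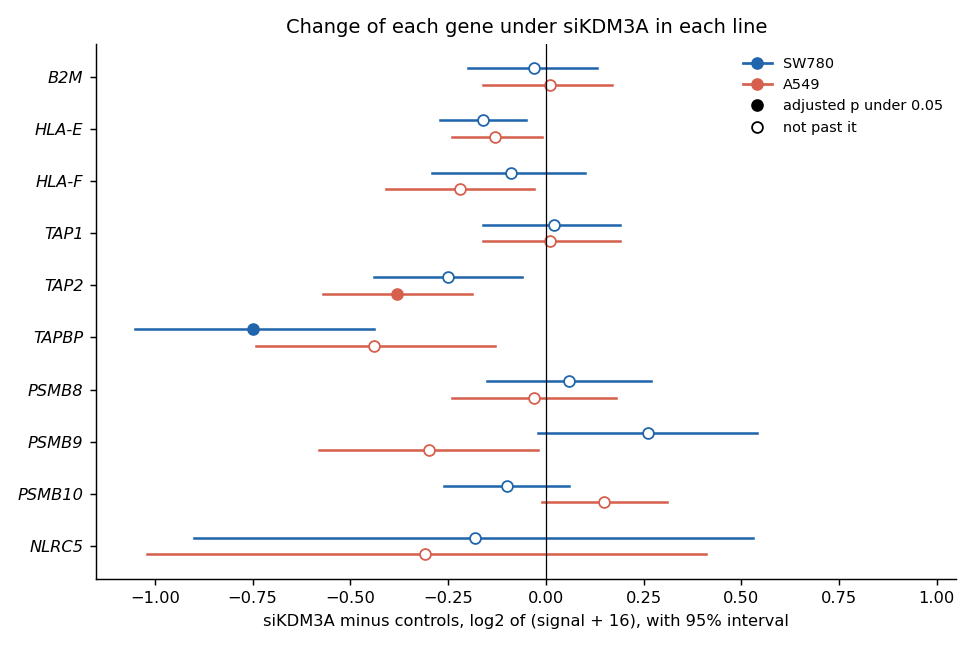
Change of each gene under siKDM3A, with its 95% interval, in SW780 (blue) and A549 (red). The x axis is siKDM3A minus controls on the log2(signal + 16) scale, and filled points passed an adjusted p of 0.05. TAPBP in SW780 and TAP2 in A549 are the filled points, and the intervals of TAP1 and B2M span 0.

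Counted without a test, both siKDM3A arrays lay below all 4 controls for 3 of the 10 genes in SW780 (TAP2, TAPBP and HLA-E), where 13.3% of all genes did, and above them for 0, where 15.3% did. In A549 they lay below for 4 (TAP2, TAPBP, PSMB9 and HLA-E), where 19.9% of genes did, and above for 1 (PSMB10), where 17.0% did. Averaged over both lines, 3 of the 10 genes were called lower and 0 higher, where 18.2% of all genes were called (8.86% higher, 9.36% lower). These were TAPBP (-0.59 ± 0.10, adjusted p = 0.00122), TAP2 (-0.32 ± 0.06, adjusted p = 0.00324) and HLA-E (-0.14 ± 0.04, adjusted p = 0.0167). HLA-E was 0.906 of the control level and lost its call in 7 of the alternatives, where siEGFP as the only control left -0.05 (adjusted p = 0.494). Without any 1 of the 4 siKDM3A arrays its adjusted p was 0.052 to 0.0758. HLA-F, at -0.16 ± 0.06 (adjusted p = 0.106), passed without A549 siEGFP replicate 1 (adjusted p = 0.0489) and with siFFluc as the only control (-0.29, adjusted p = 0.0153). The call of TAPBP was lost with the mean over probe sets (-0.33, adjusted p = 0.0514) and that of TAP2 with siFFluc as the only control (-0.17, adjusted p = 0.118).

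Other genes of the class I pathway were read for comparison from a list of 16, of which 13 were tested. In SW780 0 rose and 3 fell: PDIA3, HLA-B and CANX. In A549 0 rose and 3 fell: ERAP1, PDIA3 and HLA-B. Over all genes 5.68% rose and 6.15% fell in SW780, and 5.33% rose and 6.35% fell in A549. PDIA3, a disulfide isomerase that is bonded to tapasin in the peptide loading complex, was at 14733.9 and 13151.7 in SW780 siKDM3A, against 17451.6 to 21622.4 in the controls (-0.48 ± 0.06, adjusted p = 0.000544), and at 7739.8 and 7939.4 in A549 siKDM3A, against 8817.2 to 9550.1 (-0.23 ± 0.06, adjusted p = 0.0346). Its siKDM3A arrays lay below all controls in both lines. HLA-B, a classical class I heavy chain, was at 8053.7 and 8498.2 in SW780 siKDM3A, against 8639.2 to 14130.9 (-0.32 ± 0.09, adjusted p = 0.039), and at 4193.5 and 4100.6 in A549 siKDM3A, against 4601.5 to 5511.7 (-0.31 ± 0.09, adjusted p = 0.0483). Both groups of siKDM3A arrays again lay below their controls. In SW780 they lay close to siEGFP (8741.7 and 8639.2) and farther from siFFluc (14130.9 and 10762.2). CANX, the chaperone calnexin, fell by 0.29 ± 0.08 in SW780 (adjusted p = 0.0328), but its siKDM3A arrays overlapped with the controls. They were at 19007.0 and 16547.2, against 19970.9 and 17641.1 in siEGFP and 27335.8 and 23178.6 in siFFluc. ERAP1, which trims peptides in the endoplasmic reticulum, fell by 0.55 ± 0.14 in A549 (adjusted p = 0.023). The list median was -0.17 in SW780 and -0.15 in A549. With siEGFP as the only control 1 of the list fell in SW780 and 0 in A549. With siFFluc as the only control 4 fell in SW780, and 3 fell and 1 rose in A549. Between the control siRNAs, siEGFP minus siFFluc, 0 were higher and 3 lower in SW780 (median -0.19), where 2.97% of all genes were lower. In A549 1 was higher and 0 lower (median -0.11). Over the alternatives 1 to 4 of the list fell in SW780 and 0 to 5 in A549. In A549 only 0 or 1 fell when any of the 6 A549 arrays was left out, and in SW780 1 fell without SW780 siKDM3A replicate 2, SW780 siEGFP replicate 1 or either A549 siKDM3A array.

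The constitutive proteasome was also read, with 16 genes tested: 0 rose and 1 fell in SW780 (PSME4), and 1 rose and 0 fell in A549 (PSME3). The list medians were 0.01 and 0.07. Over all genes 6.15% fell in SW780 and 5.33% rose in A549, so 1 of 16 is near the background. Between the control siRNAs, siEGFP minus siFFluc, 0 were higher and 4 lower in SW780, where 2.97% of all genes were lower, and 0 were called in A549. PSME3, the nuclear proteasome activator, rose by 0.44 ± 0.06 in A549 (adjusted p = 0.000396), at 4862.2 and 4939.4 in siKDM3A against 3408.5 to 3780.7 in the controls. In SW780 it was at 4702.6 and 4592.0 in siKDM3A against 4974.0 to 5515.7. PSME4, a further activator, fell by 0.31 ± 0.08 in SW780 (adjusted p = 0.0203).

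Interferon-stimulated genes were set beside the class I genes. Both lists were chosen with earlier results of these data known. Of 30 interferon-stimulated genes, 21 rose and 0 fell in SW780 under siKDM3A (median 0.64), and 5 rose and 1 fell in A549 (median 0.03). Of the 10 class I genes 0 were called higher in either line, where 5.68% of all genes were in SW780 and 5.33% in A549, so 0 of 10 is near that share. By the test of the difference between lines 2.75% of all genes were called (1.78% higher, 0.974% lower). Of the interferon-stimulated genes 11 were called higher by it and 0 lower. The difference between lines was called in 11 of the 30, and in 5 to 7 when any of the 4 siKDM3A arrays was left out. Across the alternatives 15 to 22 of the 30 rose in SW780. In A549 the 5 became 1 without A549 siKDM3A replicate 1, 2 without replicate 2, and 3 without A549 siEGFP replicate 1 or either A549 siFFluc array. With siFFluc as the only control 2 rose in A549 (median -0.09), with siEGFP 5 (median 0.13), and with the prior without trend 1. In SW780 16 rose with siFFluc as the only control and 21 with siEGFP. Between the control siRNAs, siEGFP minus siFFluc, 0 were higher and 3 lower in SW780, where 2.97% of all genes were lower. In A549 0 were higher and 2 lower, against 1.43%. IFIT1, an interferon-induced RNA-binding protein, was at 1076.9 and 1032.1 in SW780 siKDM3A, against 191.2, 186.0, 255.6 and 298.5 in the controls (2.13 ± 0.07, adjusted p = 4.97e-09). IFI27 rose by 2.26 ± 0.08 (adjusted p = 5.6e-09) and MX1, an antiviral GTPase, by 1.83 ± 0.12 (adjusted p = 2.43e-06). Of 24 interferon-stimulated genes with a promoter entry, 14 held the ISRE core, as did 6 of the 8 class I genes.

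Genes of interferon signalling and class I regulation were tested in 21 cases, of which 4 rose and 2 fell in SW780 and 1 rose and 1 fell in A549. Over all genes 5.68% rose and 6.15% fell in SW780, and 5.33% rose and 6.35% fell in A549. Apart from the 4 that rose in SW780, these counts are near those shares. IRF9, through which the type I interferon signal reaches ISREs, rose in SW780 by 1.70 ± 0.08 (adjusted p = 6.44e-08), at 1062.8 and 1216.5 in siKDM3A against 299.7 to 379.9 in the controls. IRF7, a regulator of type I interferon genes, rose there by 0.84 ± 0.13 (adjusted p = 0.00111), whereas the kinase gene JAK1 fell by 0.39 ± 0.07 (adjusted p = 0.00403) and IRF3 by 0.42 ± 0.09 (adjusted p = 0.00981). In A549 IRF2 fell by 0.76 ± 0.19 (adjusted p = 0.0195) and NFYB, a subunit of the factor that binds the Y box, rose by 0.35 ± 0.08 (adjusted p = 0.0129), as it did in SW780 by 0.27 ± 0.08 (adjusted p = 0.0409). IRF1, a direct activator of several class I pathway genes, did not pass in SW780 (0.01 ± 0.10, adjusted p = 0.98) or in A549 (-0.27 ± 0.10, adjusted p = 0.121). Of 9 interferon genes on the array 3 passed the filter, and 0 were called in either line (1 lower in SW780 at an unadjusted p under 0.05). In the MHC class II list, 6 genes tested, 1 fell in each line, where 6.15% of all genes fell in SW780 and 6.35% in A549. It was CTSS, a lysosomal protease, which fell by 0.32 ± 0.08 in SW780 (adjusted p = 0.0266) and by 0.73 ± 0.08 in A549 (adjusted p = 0.000142). In the list of NKG2D stress ligands 0 of 4 tested were called in either line (1 lower in A549 at an unadjusted p under 0.05).

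**Figure D4:**
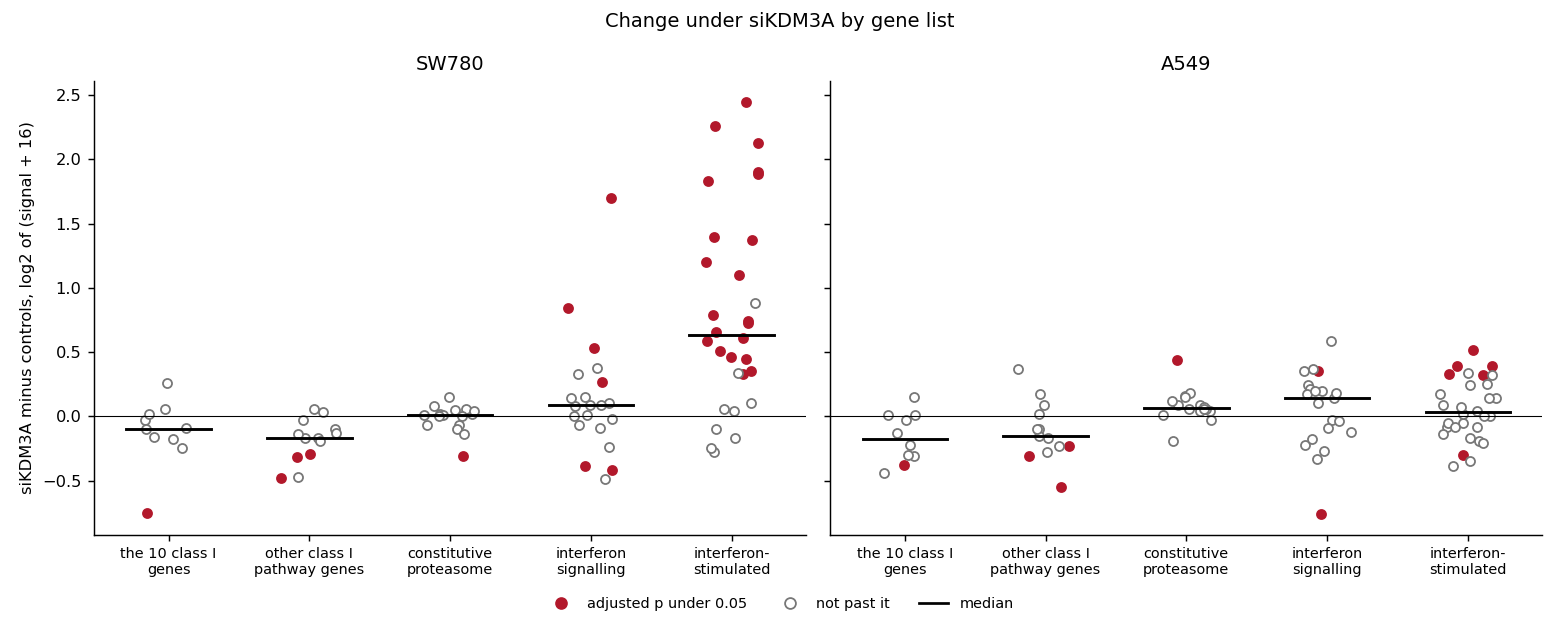
Change of each gene under siKDM3A in SW780 and A549, for the 10 class I genes and 4 other lists. Each point is 1 gene on the log2(signal + 16) scale, filled where the adjusted p is under 0.05, and the black lines are medians. The interferon-stimulated genes have a median of 0.64 in SW780 and 0.03 in A549, and the 10 class I genes have medians of -0.10 and -0.17.

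The control arrays gave the levels of the genes in the 2 lines without KDM3A siRNA. Line and medium cannot be told apart in this comparison. Of the 10 genes 7 were higher in SW780 than in A549 and 1 was lower, where 68.9% of all genes differed (30.1% higher, 38.8% lower). The median difference was 0.41 for the 10 genes and -0.11 for all genes. HLA-E was the most different of those higher, at 7383.7 ± 614.9 in SW780 and 2805.4 ± 175.0 in A549 (SD, n = 4 each), a difference of 1.39 ± 0.04 (adjusted p = 6.31e-12). PSMB10 and PSMB8 followed with 1.00 ± 0.06 (adjusted p = 5.95e-09) and 0.94 ± 0.08 (adjusted p = 1.94e-07). B2M differed by 0.49 ± 0.06 (adjusted p = 1.18e-05), TAP1 by 0.33 ± 0.07 (adjusted p = 0.000685) and HLA-F by 0.31 ± 0.07 (adjusted p = 0.00168). NLRC5 ran the other way, at 45.8 ± 21.3 in SW780 and 204.2 ± 28.2 in A549, and was lower in SW780 (adjusted p = 3.04e-05). Since its SW780 signals lay on either side of the filter signal, the size is not firm: the log2 difference was -2.25 with a pseudocount of 1, -1.89 with 16 and -1.30 with 64.

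TAPBP was higher in SW780 by its main probe set (0.65 ± 0.11, adjusted p = 0.000182), but the mean over its probe sets gave -0.04 (adjusted p = 0.774). HLA-F likewise gave 0.02 (adjusted p = 0.884) with the mean over its probe sets and 0.24 (adjusted p = 0.0564) with siFFluc as the only control. TAP2 (-0.10 ± 0.07, adjusted p = 0.243) and PSMB9 (0.06 ± 0.11, adjusted p = 0.618) did not pass. TAP2 passed with the mean over its probe sets (-0.72, adjusted p = 3.35e-05), and PSMB9 passed without SW780 siFFluc replicate 1 (0.22, adjusted p = 0.00249). In the same arrays 25 of the 30 interferon-stimulated genes were lower in SW780 and 3 were higher (BST2, TRIM22 and UBE2L6), while the other class I pathway genes were higher in 9 and lower in 2 of 13. The ISG counts were 23 to 26 lower over the alternatives.

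In all 6 groups B2M lay in the order SW780 siFFluc, SW780 siKDM3A, SW780 siEGFP, A549 siFFluc, A549 siKDM3A and A549 siEGFP, from high to low. Its neighbours SW780 siKDM3A and siEGFP, and A549 siFFluc and siKDM3A, overlapped. For HLA-E the arrays of all 6 groups were apart, with SW780 siFFluc at 7910.4 ± 83.4 at the top and A549 siKDM3A at 2566.1 ± 6.86 at the bottom (SD, n = 2 each). For TAP2, A549 siEGFP (875.0 ± 26.2) and SW780 siEGFP (848.9 ± 28.1) were highest and overlapped, and SW780 siKDM3A (629.9 ± 22.1) and A549 siKDM3A (614.4 ± 37.6) were lowest and overlapped. PSMB9 was highest in SW780 siKDM3A (2501.1 ± 153.9) and lowest in A549 siKDM3A (1617.2 ± 46.6), with the 4 control groups between them. Neighbours in that order overlapped, except that A549 siKDM3A lay apart from A549 siFFluc.

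The control siRNAs siEGFP and siFFluc differed for 1 of the 10 genes in SW780, where 5.57% of genes differed (2.60% higher, 2.97% lower). In A549 they differed for 0 of 10, where 2.92% of genes did (1.49% higher, 1.43% lower), with 1 higher and 2 lower at an unadjusted p under 0.05. In SW780 B2M was at 31513.1 and 27795.8 in siEGFP, against 39609.3 and 37022.0 in siFFluc, a difference of -0.37 ± 0.09 (adjusted p = 0.030) that was 0.01 (adjusted p = 0.93) after quantile normalization. It did not pass without SW780 siFFluc replicate 1 (adjusted p = 0.125), SW780 siEGFP replicate 2 (0.219), or A549 siKDM3A replicate 1 (0.0594) or replicate 2 (0.0596). Without SW780 siFFluc replicate 2, TAPBP (-0.66, adjusted p = 0.00378) and PSMB9 (0.35, adjusted p = 0.0184) passed as well. The TAP2 differences, siEGFP minus siFFluc, were 0.34 ± 0.10 in SW780 (adjusted p = 0.0651) and 0.24 ± 0.10 in A549 (adjusted p = 0.324), and the HLA-E differences were -0.21 ± 0.06 (adjusted p = 0.0653) and -0.15 ± 0.06 (adjusted p = 0.274). These comparisons share control arrays with the siKDM3A ones.

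For the genes with more than 1 probe set, the main probe set was set beside the others, with p-values adjusted over all kept probe sets. The TAP2 probe sets agreed in sign under siKDM3A: the others gave -0.19 ± 0.22 and -0.68 ± 0.24 in SW780 and -0.54 ± 0.22 and -0.45 ± 0.24 in A549, with adjusted p values of 0.687, 0.107, 0.168 and 0.297. They differed between lines, since 1 of them was at 59.2 to 182.5 in the SW780 controls and 466.9 to 505.0 in the A549 controls (-2.19 ± 0.18, adjusted p = 1.54e-07). TAPBP fell by its main probe set, and the next brightest gave -0.41 ± 0.18 in SW780 (adjusted p = 0.183) and 0.02 ± 0.18 in A549 (adjusted p = 0.976). The dimmest, with a mean signal of 55.9, gave -0.17 ± 0.33 in SW780 and -0.24 ± 0.33 in A549. It gave 1.63 ± 0.38 for siEGFP minus siFFluc in SW780 (adjusted p = 0.0315) and -0.98 ± 0.27 between lines (adjusted p = 0.00537). In the mean over probe sets it weighs the same as the brighter ones. The second B2M probe set gave 0.00 ± 0.09 in SW780 and -0.03 ± 0.09 in A549. The other HLA-E probe sets gave -0.06 ± 0.08 and -0.20 ± 0.12 in SW780 and -0.15 ± 0.08 and -0.27 ± 0.12 in A549, and none of these passed. A second HLA-F probe set was at 750.3 and 689.2 in A549 siKDM3A, against 697.4 and 1391.1 in siEGFP and 1582.6 and 1743.9 in siFFluc (-0.82 ± 0.18, adjusted p = 0.0139), with siEGFP replicate 1 among the siKDM3A values. This probe set gave -0.26 ± 0.18 in SW780 (adjusted p = 0.446) and passed over both lines (-0.54 ± 0.13, adjusted p = 0.0134).

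**Figure D5:**
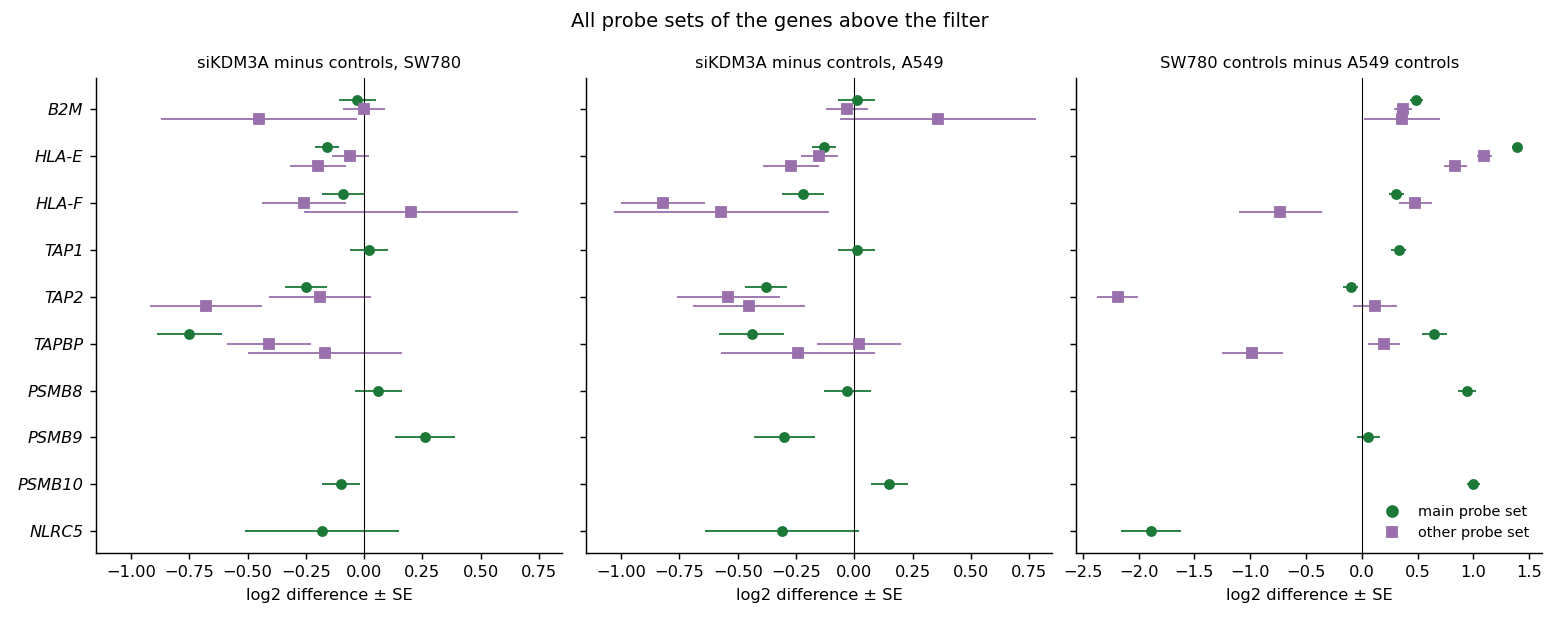
All probe sets of the 10 genes above the filter, with the main one as a green circle and the others as purple squares. The x axes are siKDM3A minus controls in SW780 and in A549 and SW780 minus A549 control arrays, in log2 units with SE bars. The TAP2 probe sets lie at -2.19, -0.10 and 0.12 in the comparison of lines.

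After the mean of its line was taken from each array, the genes closest to the mean of the 10 over the 12 arrays were TMEM41B and DAP3 (Pearson r = 0.935), ASCC1 (0.931), GALNT12 (0.915) and LIPA (0.914), which are given as a description. The correlation of each of the 10 with the mean of the other 9 was highest for HLA-E (0.653) and HLA-F (0.588) near 0 for B2M (0.0124) and lowest for TAP1 (-0.158).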

How the data were processed

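The deposited values are MAS5 signal intensities on a linear scale, per the labels, and the authors' scaling gave every array the same trimmed mean (500.1 after leaving out 2% at each end). The submitters' processing notes name MAS5, and no version of it is given there. Scan files were not analysed here. Control probe sets (62) were removed. Probe sets with 1 gene symbol in the annotation given, which dates from 2016, and a mean signal at or above the 40th percentile (33.6) were kept, and the brightest was tested for each of 14061 genes. Some genes are not reported here. Log2(signal + 16) was fitted with 6 group means (limma 3.58.1, R 4.3.3), a trend in the prior and the Benjamini-Hochberg adjustment over all genes. The change in a line is siKDM3A minus the average of both control groups.

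The members and lists were chosen with earlier results of these data known. Genes named from the lists were up to 4 of smallest p per list and comparison among those called, KDM3A, and the 5 genes most like the members. IRF1 and the 3 interferon-stimulated genes higher in SW780 were named after their values were seen. RefSeq sequences and coordinates are of build GRCh38.p14. Alternatives were the pseudocount, the scaling, the filter, the probe set, the prior, the block, the control siRNA, the arrays fitted and each array left out. The number of arrays limits the precision. The procedure was tested on simulated data.

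Replicate numbers were checked for pairing: the correlation of replicate deviations between groups was -0.03 to 0.02.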

Additional observations from a re-analysis of the deposited data

Results flagged for a closer look

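No class I gene was flagged by the test of a different response. Genes of the other lists responded differently in SW780 and in A549 by limma's test of the difference (SW780 minus A549, log2 scale, Benjamini-Hochberg adjusted p over all genes). PSME3 differed by -0.58 (adjusted p = 0.00499). IRF9 differed by 1.46 (adjusted p = 2.77e-05). IFI27 differed by 2.25 (adjusted p = 8.32e-07), IFIT1 by 1.61 (adjusted p = 5.61e-06), MX1 by 1.66 (adjusted p = 0.000686) and IFI44L by 2.26 (adjusted p = 0.000686). For IFI44L, SW780 siKDM3A gave 167.6 and 158.8, where controls gave 21.6 to 44.4, and A549 siKDM3A gave 379.6 and 445.6, where controls gave 468.4 to 570.3. With 2 arrays a group, no single array could be tested as an outlier.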

How the results depend on the processing

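Of 1680 values of the 10 genes under alternatives, 1624 stayed on their side of the threshold, 28 passed only under the alternative, 26 no longer passed and 2 that were called changed sign. Of the 1624, 66 changed sign without being called in either setting, from main values of at most 0.34 in size; the widest was TAPBP between the control siRNAs in SW780 (0.43 with the mean over probe sets). The 2 called values that changed sign were B2M between the control siRNAs in SW780 under quantile normalization (0.01) and TAPBP between lines with the mean over probe sets (-0.04). For siKDM3A in SW780 the count called was 3 under median scaling, 2 with the 60th percentile filter, 0 with the mean over probe sets and 2 with siFFluc as the only control. For siKDM3A in A549 it was 3 with only the arrays of the line and 2 with siFFluc as the only control. The difference between lines was 1 under median scaling. siEGFP against siFFluc in SW780 was 0 under quantile normalization, median scaling, no filter, the mean over probe sets, the prior without trend and only the arrays of the line, and 2 with the 60th percentile filter. Leaving out each array gave 1 to 3 called in SW780, 0 to 3 in A549, 2 to 4 over both lines, 0 to 2 for the difference, 0 to 3 for siEGFP against siFFluc in SW780 and 0 in A549, and 8 to 9 between lines. The cause of these shifts was not tested. The replicate block, whose numbers do not pair the arrays, changed no count of the 10 genes (1, 1, 3, 0, 1, 0 and 8). The median of all genes moved under median scaling to -0.07 in SW780, 0.12 in A549 and -0.21 for the difference. The interferon-stimulated genes that rose in A549 numbered 5 in the report and 1 to 7 over the alternatives (1 and 2 without A549 siKDM3A replicate 1 and 2), chosen for these lists after seeing the data. Dim probe sets such as NLRC5 limit what small changes can be seen.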
